A study of Mus musculus with 6 samples.

Results

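The transcripts described here encode the TOM and TIM proteins, the protein translocases of the outer and inner mitochondrial membrane. They were taken as every row of the count table whose symbol starts with Tomm or Timm and goes on with a number, with an ending letter or letter and digit allowed (Timm8a1) and pseudogenes left out, which gave 25 genes (10 Tomm, 15 Timm) among 23867 rows. The antisense RNA Tomm6os and the complex I assembly factor Timmdc1 do not match that pattern. Bulk RNA sequencing was done on 6 libraries of mouse chondrocytes, the cells that make cartilage. The 3 wild-type libraries carry the genotype label MFN2wt, and the 3 knockout libraries the label MFN2Col2a1-/-, which joins loss of Mfn2 to Col2a1, a collagen gene of cartilage. Mfn2 encodes mitofusin 2, a protein of the outer membrane that fuses mitochondria. No agent, age, sex, culture condition or Cre construct is given for either group, and the knockout columns are named CRE1, CRE2 and CRE3. Separate mice, a shared pool or repeated cultures could each lie behind the 3 libraries of a group, since the labels do not say. The p-values therefore reflect library-to-library spread, which may be technical.

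Nearly all mitochondrial proteins are made in the cytosol and imported. The receptors TOM20, TOM22 and TOM70 recognise precursors on the mitochondrial surface and pass them to the TOM40 channel, which small TOM subunits stabilise. Proteins with a cleavable targeting sequence then go through the TIM23 complex into the matrix, carrier proteins are guided by small TIM chaperones to the TIM22 complex and enter the inner membrane, and many cysteine-rich proteins are trapped between the membranes by a disulfide relay.

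Levels are given as CPM, counts relative to library size, adjusted with TMM factors (which align the bulk of the genes between libraries), and fold changes compare knockout with wild type. The threshold for a call was an adjusted p of 0.05, with edgeR's quasi-likelihood fit made over all 15028 genes that passed the filter. Knockout libraries held 31481779 to 37814723 counts, and wild-type libraries 39267487 to 40152687. Mfn2 was lower in each knockout library, at 59.98 ± 3.78 CPM against 107 ± 0.937 CPM (SD, n = 3; log2 fold change −0.84, adjusted p = 2.24e-10 in edgeR's test). The label of chondrocytes was compared with 8 markers, which were detected in both groups and were all lower in the knockout. Their summed level was 2659 to 2806 CPM against 7974 to 8162 CPM. Comp (mean 1233 CPM) and Col11a1 (747 CPM) were the largest parts of the knockout sum, and Matn3 was at 0.650 to 1.03 CPM there. Detection alone does not establish the cell type. Of all tested genes 32.1% were called lower and 30.7% higher. All 12 macrophage markers were lower (314 to 325 CPM in the knockout, 2913 to 2934 CPM in the wild type), as were all 9 proliferation markers (125 to 136 CPM against 454 to 468 CPM). Of 6 fibroblast markers 3 were higher and 2 lower (summed 13703 to 13898 CPM against 8011 to 8093 CPM), and all 5 tested osteoblast markers were lower (7.01 to 7.80 CPM against 73.7 to 79.97 CPM). Fat cell markers summed to 199 to 216 CPM in the knockout and 68.1 to 74.3 CPM in the wild type, of which only Fabp4 was called. Markers of neutrophils and lymphocytes (at most 6.43 CPM summed), endothelium (at most 14.0 CPM), red blood cells (at most 1.96 CPM) and skeletal muscle (at most 40.03 CPM) were low in all libraries. At these low levels S100a8, Camp, Pecam1, Plvap and Mylpf were called higher in the knockout and Kdr lower. No red blood cell marker was called. The part of these shifts in the import genes was not tested. In bulk RNA, fewer cells of a type and less RNA per cell cannot be told apart.

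The promoters of 4 members are shown. Tomm6 had the largest rise and Timm17b the largest fall of the members described below. Timm8a1 and Tomm70a were added after their values were seen and rose strongly as well. Tomm40, which rose more than Tomm70a, is not shown. Each is the 250 bases before the RefSeq gene start on GRCm38.p6, an assembly older than the GRCm39 build named for these data. Tomm6 is read from chr17:47688387-47688636 (minus strand), Timm8a1 from chrX:134541671-134541920 (minus strand), Tomm70a from chr16:57121464-57121713 (plus strand) and Timm17b from chrX:7899086-7899335 (plus strand). Capitals mark matches to any of the motifs searched.
Tomm6: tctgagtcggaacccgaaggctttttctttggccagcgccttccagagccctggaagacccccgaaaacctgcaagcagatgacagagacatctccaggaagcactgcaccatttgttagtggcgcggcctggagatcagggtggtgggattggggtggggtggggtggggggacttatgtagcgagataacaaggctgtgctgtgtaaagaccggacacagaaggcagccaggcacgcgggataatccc
Timm8a1: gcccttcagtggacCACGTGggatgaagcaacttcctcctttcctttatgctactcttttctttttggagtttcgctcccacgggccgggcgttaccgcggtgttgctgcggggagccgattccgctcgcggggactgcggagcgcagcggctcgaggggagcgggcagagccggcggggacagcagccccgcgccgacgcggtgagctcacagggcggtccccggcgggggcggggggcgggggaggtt
Tomm70a: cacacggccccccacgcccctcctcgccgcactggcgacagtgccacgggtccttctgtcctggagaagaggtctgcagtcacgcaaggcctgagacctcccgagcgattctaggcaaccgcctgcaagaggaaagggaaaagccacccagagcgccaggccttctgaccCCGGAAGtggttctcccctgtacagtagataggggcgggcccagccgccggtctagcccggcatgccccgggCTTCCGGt
Timm17b: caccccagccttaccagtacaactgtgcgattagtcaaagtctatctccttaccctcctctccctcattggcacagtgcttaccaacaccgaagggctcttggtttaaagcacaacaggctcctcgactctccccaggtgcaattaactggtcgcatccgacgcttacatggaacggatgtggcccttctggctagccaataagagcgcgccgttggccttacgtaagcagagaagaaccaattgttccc
The motifs, on both strands, were GCGC, then any base, then TGCGC (the NRF1 motif), CCGGAAG (ETS factors), AAGATGG (YY1), CACGTG (the E-box) and ACGTG (hypoxia response, contained in the E-box). The search window also held the 50 bases after the start. Tomm6 and Timm17b had no match. For Timm17b, the later part of the 50 bases after the RefSeq start did not occur unbroken in a GENCODE M21 transcript of the gene. That check does not compare starts directly, since a splice site inside the stretch would also fail it. The window of Timm17b may not lie at the start used in these cells. Timm8a1 had an E-box starting 236 bases before the start and another at base 25 after it, and Tomm70a had ETS matches at bases −80 and −8. RefSeq promoters were matched by symbol for 20 of the 23 members with enough counts to test. Of these, 8 (40%) held the ETS motif, against 18.31% of 11690 tested genes with a promoter. The E-box was in 4 members (20%, against 11.37%), the hypoxia motif in 5 (25%, against 28.4%), YY1 in 3 (15%, against 8.169%) and NRF1 in 2 (10%, against 10.39%). These matches describe letters in a window, with no statement on binding.

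Most import genes were modestly higher in the knockout. Of the 25 members 23 passed the filter on low counts. Of these, 15 were called higher, 2 were called lower and 6 were not called. Among all tested genes 62.7% were called, 30.7% higher and 32.1% lower. The groups did not overlap in CPM for 18 of the 23 members, and for 67.1% of all tested genes. The median log2 fold change was 0.28 over the tested members and −0.021 over all tested genes. Changes were small: 2 members, Tomm6 and Timm8a1, were called with a change of at least 2-fold (8.70%), as were 2965 of all tested genes (19.7%). The 2 members that were not tested were Tomm20l, with 2 counts in 1 wild-type library and 0 in the other 5, and Timm8a2, with 1 count in 1 knockout library and 0 in the other 5.

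The count of rises depended on the scaling. Scaling by total counts alone moved the median of all genes from −0.021 to −0.23, and 8 of the 23 members were called higher (34.8%) and 3 lower (13%). Of all genes, 18.6% were called higher and 50.8% lower under that scaling. The same 8 were called higher in every one of the 19 other settings tried: Tomm6, Tomm40, Tomm70a, Timm8a1, Timm8b, Timm10b, Timm23 and Timm29. On total counts Timm13, Timm17a, Timm22, Timm44 and Tomm5 kept a positive sign without passing the test, and Tomm20 and Tomm22 turned to slightly negative values. As a share of the library's total counts, members took 0.0896% to 0.0926% in knockout libraries against 0.0800% to 0.0811% in wild-type ones. Without Tomm6 these shares were 0.0762% to 0.0787% and 0.0730% to 0.0740%. The groups did not overlap in either share, as in 67.1% of all tested genes in CPM. Each share gave an exact permutation p = 0.1, the smallest that 3 against 3 libraries allow.

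**Figure D1:**
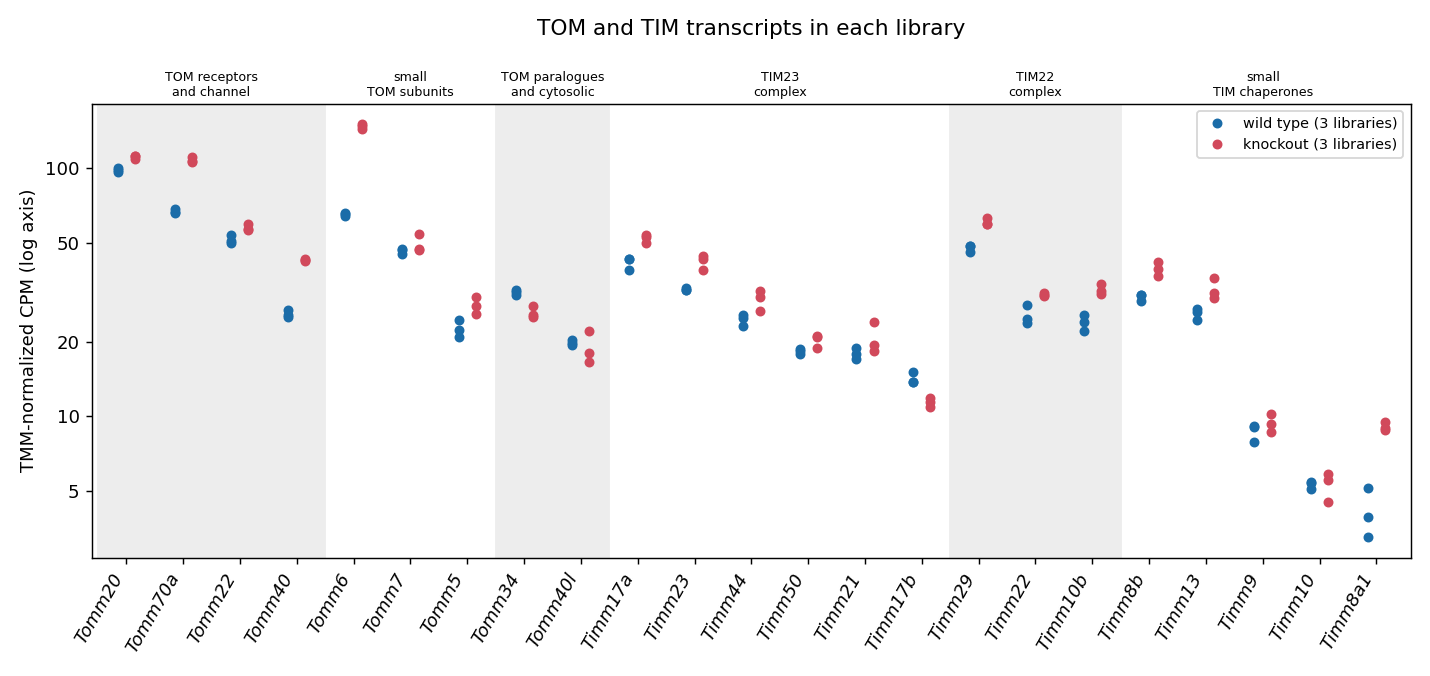
TMM-normalized CPM (log axis) of the 23 tested TOM and TIM genes in each library, grouped by complex; each point is 1 library. Tomm6, Tomm40, Tomm70a and Timm8a1 show the widest gaps between the groups, and Tomm34 and Timm17b lie lower in the knockout.

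Among the receptors and the channel, Tomm40 and Tomm70a stood out. Tomm40, the channel-forming protein through which nearly all precursors pass, was at 42.8, 42.3 and 43.0 CPM in CRE1, CRE2 and CRE3 and at 25.7, 27.0 and 25.2 CPM in the wild-type libraries 1 to 3. The groups were far apart and the spread within each was small, a 1.64-fold rise (log2 fold change 0.72, SE 0.050, adjusted p = 4.88e-09, edgeR). Tomm70a, the receptor for carriers and other precursors that arrive with cytosolic chaperones, was at 106, 107 and 111 CPM in the knockout and 68.6, 66.7 and 65.9 CPM in the wild type. It rose 1.61-fold (log2 fold change 0.68, SE 0.039, adjusted p = 3.86e-10, edgeR).

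The presequence receptor Tomm20 and the central receptor Tomm22 differed far less. Tomm20 was at 112, 112 and 108 CPM against 100, 98.0 and 96.4 CPM, without overlap (log2 fold change 0.17, SE 0.037, adjusted p = 0.000781, edgeR). On deposited FPKM, which the authors scaled by total counts and gene length, Tomm20 overlapped between the groups, at 20.6 ± 0.435 for knockout libraries and 21.2 ± 0.383 for wild-type ones (SD, n = 3). Tomm22 was at 59.5, 57.0 and 56.4 CPM against 49.9, 53.9 and 51.1 CPM (log2 fold change 0.16, SE 0.047, adjusted p = 0.00801, edgeR). Its value was −0.051 with total counts alone and that of Tomm20 −0.036, neither of them called, so the direction of both rests on the scaling. With upper-quartile factors both were positive (0.082 for Tomm20, 0.067 for Tomm22) and not called. The receptors therefore changed unequally within each library: the FPKM of Tomm70a was 1.25, 1.26 and 1.35 times that of Tomm20 in CRE1, CRE2 and CRE3, and 0.898 to 0.903 times in the wild type. This ratio was chosen after its values were seen, and its exact permutation test cannot give less than the p = 0.1 that it gave.

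Of the small TOM subunits, only Tomm6 rose strongly. Tomm6, which helps to hold the TOM complex together, was at 148, 150 and 144 CPM in CRE1 to CRE3 and at 65.5, 64.1 and 65.99 CPM in the wild type, a 2.26-fold rise (log2 fold change 1.17, SE 0.037, adjusted p = 2.53e-13, edgeR). It had the largest fold change of all tested members, and in the 19 other settings its log2 fold change stayed between 0.956 and 1.204. Tomm5 was at 30.4, 25.9 and 27.9 CPM against 20.8, 22.2 and 24.4 CPM (log2 fold change 0.32, SE 0.073, adjusted p = 0.00134, edgeR), and this call was lost with total counts alone (0.11, adjusted p = 0.190). Tomm7, which also takes part in stabilising the kinase PINK1 on damaged mitochondria, overlapped between the groups, at 54.3, 46.8 and 47.4 CPM against 46.6, 44.9 and 47.0 CPM. Its log2 fold change was 0.099 (95% interval −0.023 to 0.22, adjusted p = 0.145, edgeR). In FPKM, Tomm6 stood at 6.26 ± 0.182 times Tomm40 in the knockout and 4.56 ± 0.222 times in the wild type, while Tomm7 went from 2.93 ± 0.169 to 1.91 ± 0.157 times Tomm40 (SD, n = 3; each exact permutation p = 0.1, the smallest that 3 against 3 libraries allow). These ratios were likewise chosen after the values were seen.

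Reads of Tomm6 can be hard to assign. In the GENCODE M21 annotation of GRCm38 its exons share bases with Tomm6os and Usp49 on the other strand and with the readthrough gene Gm21981 on the same strand. Tomm6os held 154 counts over the 6 libraries, at 0.735 to 1.40 CPM in the knockout and 0.450 to 0.578 CPM in the wild type, far under Tomm6. Usp49 held 4340 counts summed over the 6 libraries. Tomm6 held 2706 to 2852 in each single wild-type library and 4295 to 5312 in each single knockout library. The counts of Usp49 are not split by group here. The part of overlapping reads in the rise of Tomm6 was not tested, since neither strand nor the handling of shared reads is given in the sources used here.

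The paralogues and the cytosolic member of the TOM group did not share these rises. Tomm34, a cytosolic co-chaperone that binds heat shock proteins and precursors, was at 25.1, 25.6 and 27.9 CPM in the knockout and 30.9, 31.8 and 32.2 CPM in the wild type. It fell 1.21-fold (log2 fold change −0.27, SE 0.057, adjusted p = 0.00064, edgeR), a change that did not pass a test against a 1.2-fold difference (adjusted p = 0.388). Tomm40l, a second TOM40-like channel protein, was at 18.1, 22.1 and 16.6 CPM against 19.4, 20.3 and 19.7 CPM, with CRE2 above and the other knockout libraries below the wild type (log2 fold change −0.057, 95% interval −0.25 to 0.13, adjusted p = 0.597, edgeR). It was called lower with total counts alone (−0.27, adjusted p = 0.018), and without CRE3 its sign turned (0.041).

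**Figure D2:**
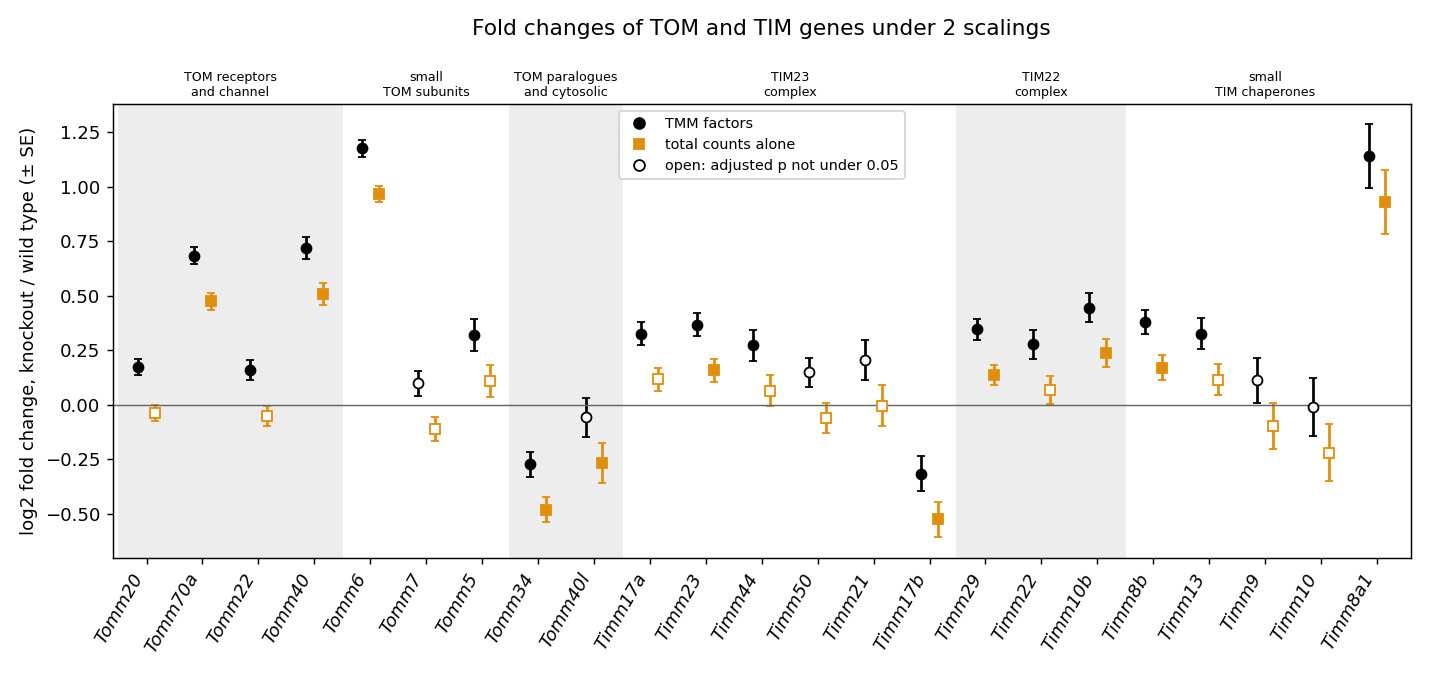
Log2 fold change (knockout over wild type, ± SE) of each tested member with TMM factors (black circles) and with total counts alone (orange squares); filled symbols passed an adjusted p of 0.05. With total counts alone values lie lower by about the shift of all genes, and 8 members stay called higher.

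In the TIM23 complex, the channel core rose and 1 of its alternative subunits fell. Timm23, the channel-forming protein, was at 44.1, 39.1 and 42.9 CPM in CRE1 to CRE3 and at 32.4, 32.3 and 32.9 CPM in the wild type (1.29-fold, log2 fold change 0.37, SE 0.054, adjusted p = 2.48e-05, edgeR). Timm17a, its partner in the membrane, was at 53.9, 52.7 and 49.7 CPM against 38.9, 42.9 and 43.0 CPM (log2 fold change 0.33, SE 0.053, adjusted p = 6.56e-05, edgeR). Timm17b, which takes the place of Timm17a in a second form of the complex, went the other way, at 11.5, 11.8 and 10.9 CPM against 13.8, 15.1 and 13.8 CPM (1.25-fold lower, log2 fold change −0.32, SE 0.081, adjusted p = 0.00317, edgeR). For both paralogues the groups did not overlap in CPM. Under total counts alone Timm17a kept its sign but not its call (0.12, adjusted p = 0.0645), and Timm17b stayed lower (−0.53). The fall of Timm17b did not pass the test against a 1.2-fold difference (adjusted p = 0.215).

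The remaining TIM23 members moved little. Timm44, which anchors the matrix import motor to the channel, was at 30.2, 32.1 and 26.7 CPM against 25.7, 23.1 and 24.9 CPM (log2 fold change 0.27, SE 0.071, adjusted p = 0.00336, edgeR; 0.064 and not called with total counts alone). Timm50, the receptor that meets precursors behind the outer membrane, did not pass the test although the groups did not overlap, at 21.1, 20.8 and 18.8 CPM against 18.3, 17.8 and 18.6 CPM (0.15, adjusted p = 0.0679, edgeR). Without CRE3, the lowest knockout library, it was called higher (0.21, adjusted p = 0.021). Timm21, which links the complex to TOM and to the respiratory chain, lay within the wild-type range in CRE1 and above it in CRE2 and CRE3, at 18.4, 24.0 and 19.5 CPM against 18.9, 17.8 and 17.1 CPM (0.20, adjusted p = 0.0604, edgeR). It was called higher without CRE1 (0.29, adjusted p = 0.00377) or without CRE3 (0.26, adjusted p = 0.028). Both turned sign under total counts alone and were not called (−0.060 for Timm50, −0.0037 for Timm21).

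All 3 members assigned here to the TIM22 complex were called higher, with Timm9 and Timm10 counted among the small TIM chaperones below. Of all tested genes 30.7% were called higher, and the groups did not overlap in CPM for 67.1%. Timm10b, a small TIM protein docked on the complex, was at 31.1, 34.3 and 32.1 CPM in CRE1 to CRE3 against 25.6, 22.1 and 24.0 CPM (1.36-fold, log2 fold change 0.45, SE 0.065, adjusted p = 2.13e-05, edgeR). Timm29, a subunit found in animals that holds the complex together, was at 63.2, 59.4 and 59.5 CPM against 48.5, 45.9 and 48.8 CPM (1.27-fold, log2 fold change 0.35, SE 0.047, adjusted p = 9.82e-06, edgeR). Timm22, the pore subunit, was at 31.5, 30.9 and 30.5 CPM against 23.8, 28.2 and 24.7 CPM (log2 fold change 0.28, SE 0.066, adjusted p = 0.0018, edgeR). The groups did not overlap for any of the 3 in CPM, but the rise of Timm22 was 0.068 and not called with total counts alone. Exons of Timm10b overlap those of Arfip2 and exons of Timm29 those of Yipf2, each on the other strand. Timm10b also shares bases with Gm45799 on its own strand. Members of other groups overlap opposite-strand genes too, among them Tomm40l with Nr1i3 (3304 bases) and Tomm40 with Gm20512 (258 bases). Timm8b does so with Nkapd1 (81 bases) and Tomm70a with Nit2 (41 bases). The part of shared reads was not tested.

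The small TIM chaperones escort hydrophobic precursors between the membranes as hexamers of TIM9 with TIM10 or TIM8 with TIM13. All 3 detected TIM8 and TIM13 genes were called higher, as were 30.7% of all tested genes. Timm9 and Timm10 were not called. A difference between the hexamers was not tested, and called against not called does not show one. Log2 fold change intervals were −0.11 to 0.33 for Timm9 and −0.29 to 0.27 for Timm10. Those of Timm13 (0.17 to 0.48) and Timm8b (0.26 to 0.50) overlapped both, and that of Timm8a1 (0.83 to 1.45) lay above. Timm8a1, the mouse counterpart of the gene lost in a human deafness and dystonia syndrome, was at 8.80, 9.52 and 8.94 CPM in the knockout and at 3.94, 3.27 and 5.16 CPM in the wild type. The wild-type libraries varied more, but all 3 stayed under every knockout library, and the rise was 2.20-fold (log2 fold change 1.14, SE 0.146, adjusted p = 5.31e-06, edgeR). Over the other settings its log2 fold change lay between 0.79 and 1.33. Timm8b was at 39.4, 41.8 and 36.9 CPM against 29.3, 30.9 and 30.8 CPM (1.30-fold, log2 fold change 0.38, SE 0.056, adjusted p = 2.64e-05, edgeR). Timm13, the partner of the TIM8 proteins, was at 36.2, 29.9 and 31.5 CPM against 24.4, 26.3 and 27.1 CPM (log2 fold change 0.32, SE 0.071, adjusted p = 0.000939, edgeR), and was not called with total counts alone (0.12, adjusted p = 0.158).

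The other hexamer was not called. Timm9 was at 9.32, 10.2 and 8.64 CPM against 9.10, 7.89 and 9.14 CPM (log2 fold change 0.11, 95% interval −0.11 to 0.33, adjusted p = 0.365, edgeR). Timm10 was at 5.53, 4.52 and 5.89 CPM against 5.46, 5.12 and 5.41 CPM (−0.010, 95% interval −0.29 to 0.27, adjusted p = 0.952, edgeR). The groups overlapped for both, and both intervals include changes of either sign. In FPKM the libraries of Timm10 did not overlap, and it was called lower in both FPKM fits with a filter. With 160 to 234 counts per library, Timm10 was among the members with the fewest reads, together with Timm8a1 (138 to 337).

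Some members have near-identical copies in the genome, which matters where reads cannot be placed. Transcripts of other genes matched over at least 200 bases at 95% identity or more for 7 of the 25 members. Timm8a1 matched the transcribed pseudogene Gm9797 over 612 bases at 100% identity, and Timm23 matched Gm10273 over 1121 bases at 99.9%, besides several processed pseudogenes. Tomm20 matched the pseudogene Gm14494 over 435 bases at 99.5%. Tomm22, Timm17a, Timm17b and Timm21 had weaker matches to pseudogenes. The counts of Timm8a1, Timm23 and Tomm20 are therefore uncertain to the extent that such reads were dropped or shared.

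Levels can be compared between genes only per length, for which the deposited FPKM were used. In the wild type Tomm6 (69.6 ± 1.07 FPKM), Timm8b (65.0 ± 1.98) and Tomm22 (54.2 ± 2.17) led, followed by Tomm7 (44.8 ± 1.09) and Timm17a (42.2 ± 2.46), whose libraries overlapped (SD, n = 3). Tomm5 (35.1 ± 2.87) and Timm23 (30.1 ± 0.336) came next. In the middle, Timm13 and Tomm20 overlapped, as did the successive neighbours from Timm29 through Timm10b, Tomm40 and Timm44 to Tomm34. Timm21 (5.18 ± 0.26), Tomm40l (4.57 ± 0.108) and Timm8a1 (3.61 ± 0.844) were the lowest members with usable counts. In the knockout the first 3 were again Tomm6 (136 ± 3.37 FPKM), Timm8b (73.1 ± 4.90) and Tomm22 (52.3 ± 1.27). Tomm40 moved from rank 13 to rank 10, Tomm70a from 10 to 8 and Timm8a1 from 23 to 19.

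**Figure D3:**
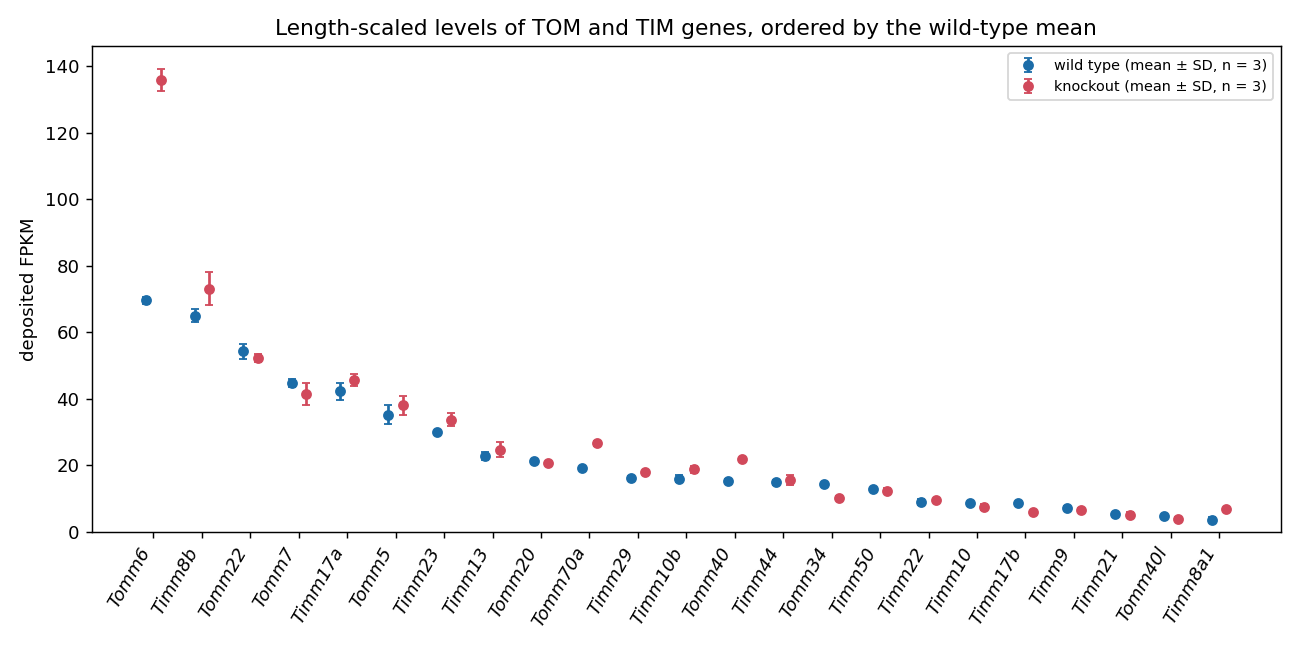
Deposited FPKM (counts per length and library total, linear axis) of the 23 tested members, ordered by the wild-type mean; points are means and bars SDs of 3 libraries. Tomm6 is the highest in both groups, at 69.6 and 136 FPKM, and most other members keep close to their place in the order.

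The balance within a pair of related genes does not depend on how libraries are scaled, although it does depend on whether counts are divided by gene length. It was compared in 6 pairs, of which 4 are members and 2 belong to the import motor. Timm17a made up 88.8%, 88.3% and 88.5% of the summed FPKM of Timm17a and Timm17b in CRE1 to CRE3, against 82.7%, 82.8% and 84.1% in the wild type. Tomm40l gave 14.2%, 17.1% and 13.2% of the Tomm40 and Tomm40l sum against 22.9%, 22.8% and 23.4%. Timm8b gave 91.6%, 91.5% and 91.0% of its sum with Timm8a1 against 94.8%, 95.9% and 93.6%. Timm10b gave 69.97%, 75.9% and 69.3% of its sum with Timm10 against 66.01%, 64.1% and 64.7%.

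The other pairs are motor genes. Grpel2, 1 of the pair of exchange factors of the matrix chaperone HSPA9, gave 16.2%, 17.6% and 14.9% of the sum with Grpel1 against 22.7%, 24.5% and 20.9%. Dnajc15 gave 84.3%, 83.5% and 84.0% of the sum with Dnajc19, both J-proteins of the motor, against 79.7%, 79.7% and 78.9%. Each pair had an exact two-sided permutation p = 0.1 (adjusted over the 6 pairs p = 0.1), which is the smallest that 3 against 3 libraries allow, so no pair can pass 0.05 by this test. The libraries of the groups did not overlap in these 6 pairs. Single genes did not overlap in 67.1% of all tested genes, and the share among gene pairs in general was not computed. From CPM, with no division by length, the differences kept their signs but 4 changed by over 1.5 times: from −3.37 to −6.83 percentage points for Timm8b, from 6.77 to 4.20 for Timm10b, from −8.21 to −12.6 for Tomm40l and from 4.502 to 7.54 for Dnajc15.

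**Figure D4:**
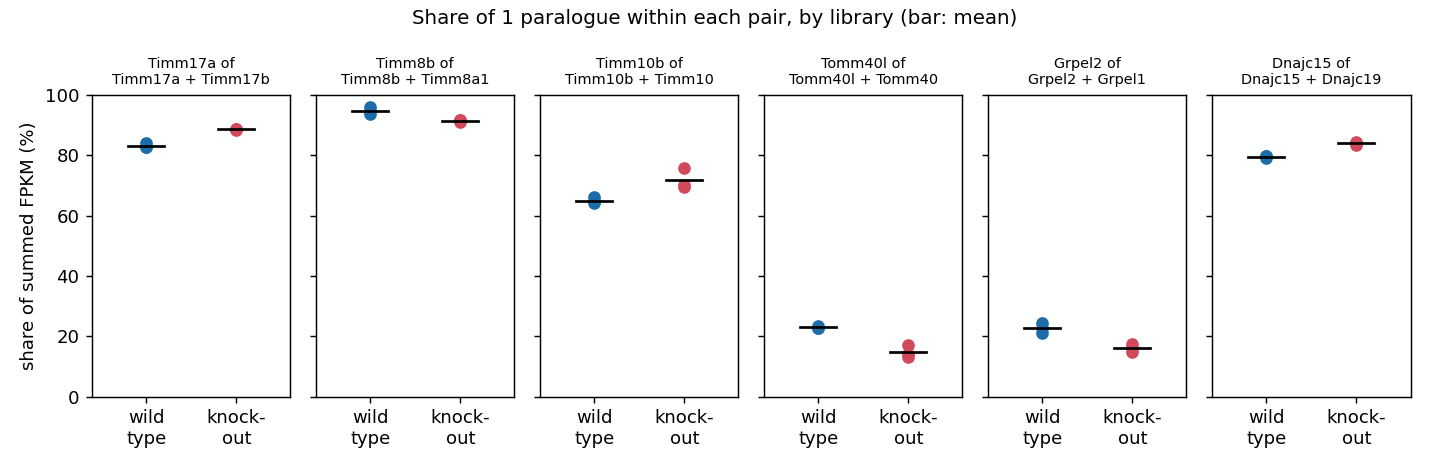
Share of the first gene in the summed FPKM of each pair (%, axis from 0 to 100), by library; bars are means of 3 libraries. The groups do not overlap in any of the 6 pairs, with Tomm40l going from 23.0% to 14.8% and Timm17a from 83.2% to 88.5%.

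Genes that work with the translocases, regulate mitochondrial genes or serve as a reference were taken as 9 lists. Of their 67 genes 26 were called higher (38.8%, against 30.7% of all tested genes) and 10 lower (14.9%, against 32.1%). In either direction 53.7% were called, against 62.7% of all tested genes. Their median log2 fold change was 0.066 (−0.021 over all tested genes). Under total counts alone 14 were called higher (20.9%) and 36 lower (53.7%), close to the 18.6% and 50.8% of all genes, so the balance of rises and falls in these lists rests on the scaling. Of 7 motor partners 2 were called higher, Grpel1 (45.998 to 73.7 CPM, log2 fold change 0.68, SE 0.047) and Hspa9, the chaperone that pulls precursors in (393 to 503 CPM, 0.36, SE 0.026), and 1 lower, Dnajc19 (−0.51, SE 0.088). The motor list gave 2 higher and 3 lower on total counts. Grpel2 (0.078) and Dnajc15 (−0.074) were not called. The adjusted p of the 3 called genes was at most 0.000113 in edgeR's test, and all 3 kept their calls with total counts alone.

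In the disulfide relay, which drives import into the space between the membranes, 2 of 3 genes were called higher: Aifm1 (0.52, adjusted p = 5.34e-07, edgeR) and the sulfhydryl oxidase Gfer (0.42, adjusted p = 7.6e-05, edgeR), while the receptor oxidoreductase Chchd4 was not (0.056). Of 8 substrates of the relay 4 were called higher and none lower. On total counts 2 were higher and 2 lower (Chchd3 at −0.19 and Cox6b1 at −0.21). For the lists in this paragraph, the shares over all tested genes were 30.7% higher and 32.1% lower. On total counts they were 18.6% and 50.8%. Those with the smallest p were Chchd2 (98.2 to 144 CPM, 0.55, SE 0.036) and the complex I subunit Ndufa8 (0.36, SE 0.049). The cytosolic chaperones that deliver precursors gave 6 higher of 9, with the largest rises in Stip1, a co-chaperone joining HSP70 and HSP90 (143 to 278 CPM, 0.96, SE 0.031), and the stress-inducible HSP90 gene Hsp90aa1 (488 to 911 CPM, 0.90, SE 0.068). Hsp90ab1, the constitutive HSP90 gene, went from 1036 to 1312 CPM (0.34, SE 0.024). Aifm1, Gfer, Chchd2, Ndufa8, Stip1, Hsp90aa1 and Hsp90ab1 all kept their calls with total counts alone, while the cytosolic list as a whole then gave 3 higher and 5 lower.

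Insertion into the outer membrane gave 3 higher of 7, none lower, with small values: Samm50, the core of the sorting machinery for barrel proteins, at 0.24 and the insertase Mtch1 at 0.20. Precursor-processing proteases and inner membrane export gave 2 higher and 1 lower of 7, with Pmpca, a subunit of the presequence peptidase, at 0.17 and Oxa1l, the insertase for proteins made inside mitochondria, at −0.38 (SE 0.062). On total counts alone Samm50 was at 0.026, Mtch1 at −0.014 and Pmpca at −0.040, none of them called, and Oxa1l stayed lower (−0.59). Under that scaling the outer membrane list gave 0 higher and 4 lower (Mtx1 −0.18, Mtx2 −0.16, Mtch2 −0.092 and Atad1 −0.14), and the protease and export list 0 higher and 3 lower (Mipep −0.26 and Xpnpep3 −0.15 besides Oxa1l). The direction of the outer membrane list therefore reversed with the scaling. Over all tested genes 30.7% were called higher and 32.1% lower with TMM, and 18.6% and 50.8% on total counts.

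The carriers that use the small TIM and TIM22 route were lower or not called. Of 7 carriers 4 were called lower (32.1% of all tested genes were) and none higher, among them the aspartate-glutamate carrier Slc25a13 from 12.2 to 6.84 CPM (log2 fold change −0.84, SE 0.108, adjusted p = 5.45e-06, edgeR) and the phosphate carrier Slc25a3 from 273.5 to 231 CPM (−0.24, SE 0.033, adjusted p = 1.06e-05, edgeR). On total counts alone 6 of the 7 were called lower, where 50.8% of all tested genes were.

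Genes used as a reference for mitochondrial content split, with 4 of 11 called higher and 3 lower (median 0.037). On total counts 3 were called higher and 8 lower (median −0.17). All tested genes gave 30.7% higher and 32.1% lower, and 18.6% and 50.8% on total counts. Prohibitin 1 (Phb1 on the list, Phb in the table; 0.49, SE 0.043) and the cristae organiser Immt (0.46, SE 0.039) were higher with either scaling. The chaperonin genes Hspd1 (−0.23) and Hspe1 (−0.26) and the channel gene Vdac2 (−0.17) were called lower, and stood at −0.44, −0.47 and −0.37 on total counts. The summed FPKM of the members was 0.748 to 0.768 times that of these 11 genes in the knockout and 0.561 to 0.571 times in the wild type. Without Tomm6 it was 0.591 to 0.601 times against 0.487 to 0.497 times. This ratio within a library shows unequal change of the 2 sets and was chosen after values were seen.

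Among 8 regulators of nuclear genes for mitochondria, 3 were called higher and 1 lower, and 2 higher and 5 lower on total counts. The shares over all tested genes were 30.7% and 32.1%, and on total counts 18.6% and 50.8%. Ppargc1b, a coactivator of mitochondrial genes, was called lower, at 0.450 ± 0.117 CPM against 1.26 ± 0.105 CPM (log2 fold change −1.49, SE 0.337, adjusted p = 0.00121, edgeR; SD, n = 3), at low levels. Myc, a transcription factor of growth, rose from 22.0 ± 0.919 to 60.1 ± 0.469 CPM (log2 fold change 1.45, SE 0.050, adjusted p = 6.34e-13, edgeR), and Yy1 rose from 79.8 ± 2.66 to 112 ± 2.37 CPM (0.49, SE 0.040, adjusted p = 2.55e-08, edgeR; SD, n = 3). Both stayed higher with total counts alone (1.24 for Myc, 0.28 for Yy1). Nrf1 was also called higher (0.32, adjusted p = 0.000508, edgeR), but was not called with total counts alone (0.12, adjusted p = 0.132). Gabpa, an ETS factor, was not called (0.074, adjusted p = 0.131, edgeR), and was lower with total counts alone (−0.13, adjusted p = 0.00995).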

How the data were processed

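Libraries were prepared with the VAHTS Universal V6 RNA-seq kit, as the labels' protocols state. Per the submitters' processing notes, fastp, HISAT2 and HTSeq were used with GRCm39; versions, roles, strand setting and annotation are not given. The authors deposited raw read counts per gene symbol and FPKM for 23867 rows. In all 13375 genes with at least 10 counts in every library, deposited FPKM was proportional to count over column total within 1%. Wild-type columns matched titles; CRE1 to CRE3 showed only their group. Chi-square per degree of freedom between libraries of 1 group was 3.19 to 8.09, so none was counted as a duplicate.

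Counts were fitted in R 4.3.3 with edgeR 4.0.16: group as the only term, TMM factors, filterByExpr (minimum count 10), a two-sided quasi-likelihood test and Benjamini-Hochberg adjustment over 15028 genes. SEs are the log2 fold change over the square root of F, and intervals are 95%. The code of the fit was run on simulated counts in which a small part of the genes changed, in both directions. That simulation lacked the broad change seen here, so it cannot show how well the fit handles these data. Every member is reported. Partner genes named are the 2 called genes with the smallest p in each list and the paired genes; the other partner and marker genes named (Gabpa, Hsp90aa1, Ppargc1b and others) were chosen after their values were seen. Members, lists and tests were chosen with earlier results of these data known. Of the list symbols, 2 were matched by an older name, and Cd3e and Ms4a1 had no match. Overlapping exons and near-identical transcripts came from GENCODE M21 (blastn 2.17.0), promoters from RefSeq, both on GRCm38. Other settings were DESeq2 1.42.0, limma-voom, limma 3.58.1 on log2(FPKM + 1) or log2(FPKM + 0.1), other scalings and filters, leaving out each library, a test for changes over 1.2-fold, and a block on the column number.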

Additional observations from a re-analysis of the deposited data

How the results depend on the processing

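Values are log2 fold changes unless given as counts, and 19 other settings were tried for each member and count. Tomm6, Tomm40, Tomm70a, Timm8a1, Timm8b, Timm10b, Timm23 and Timm29 were called higher in all 19, and no member was called in the direction opposite to its main value in any of them. The median of the members was 0.19 with upper-quartile factors, 0.068 with total counts alone, 0.064 on log2(FPKM + 1) with and without a filter, and 0.071 on log2(FPKM + 0.1). Members called higher numbered 8 with total counts alone, against a 1.2-fold change and in all 3 FPKM fits. Members called lower numbered 0 against a 1.2-fold change and 4 in the FPKM fits with a filter. Partner genes called higher numbered 14 with total counts alone and in each FPKM fit and 15 against a 1.2-fold change. Those called lower numbered 36 with total counts alone, 4 against a 1.2-fold change, 34 in both filtered FPKM fits and 33 without a filter. Of all 15028 tested genes, 2724 were called higher and 3132 lower against a 1.2-fold change. In the filtered FPKM fits 2354 were higher and 6029 lower (FPKM + 1), or 2345 and 5998 (FPKM + 0.1), of 11309 genes. Without a filter 2706 were higher and 7328 lower of 23867. Total counts alone gave 18.6% higher and 50.8% lower. Rises made up 48.9% of all calls with TMM, 26.8% on total counts and 38.02% after upper-quartile scaling.

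Signs turned with total counts alone and in the FPKM fits, which share that scaling. Given in the order total counts, log2(FPKM + 1) with and without a filter, and log2(FPKM + 0.1), Timm21 was at −0.0037, −0.014 and −0.017, Timm50 at −0.060, −0.058 and −0.062, and Timm9 at −0.097, −0.087 and −0.098. Tomm20 was at −0.036, −0.035 and −0.036, Tomm22 at −0.051, −0.049 and −0.050, and Tomm7 at −0.11, −0.11 and −0.11. Timm10 turned to 0.0050 with DESeq2 and 0.0036 with its size factors in edgeR. The cause of these turns beyond the scaling was not tested.

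With each library left out in turn, members called higher ranged from 15 to 17, members called lower stayed at 2, the median ranged from 0.27 to 0.34, partner genes called higher from 22 to 27 and lower from 9 to 11. Among all genes 4264 to 4773 were then called higher and 4396 to 4774 lower, of 15272 to 15361 tested. Timm10 ranged from −0.078 to 0.11 and Tomm40l from −0.17 to 0.041. The column numbers did not pair the libraries (correlations of same-numbered deviations −0.086, 0.055 and −0.095). With the replicate block, 15 members were called higher and 2 lower, with a median of 0.28, and 9094 of all genes were called against 9430. Tomm20l and Timm8a2 (2 counts and 1 count in all) did not pass the filter on low counts, and among tested members Timm10 and Timm8a1 had the fewest counts (138 to 337 per library).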
